A study of Mus musculus with 24 samples.

Results

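The response of Ly6Chi monocytes to imiquimod (IMQ) was followed in mice lacking Notch2 in myeloid cells, called N2ΔMy. The comparison took the 4 RNA-seq libraries of IMQ-treated N2ΔMy mice and the 4 libraries of their Sham controls, 8 of the 24 libraries of the series, as the labels assign them. The other 16 libraries came from wild-type (wt) mice and from Ly6Clo monocytes and enter only where they are set beside these 8. Both N2ΔMy groups carried Lyz2-Cre with loxP-flanked Notch2 alleles, a GFP gene in 1 copy of Cx3cr1 (Cx3cr1 gfp/+) and the C57BL/6 background, at 8-10 weeks of age; wt controls shared the reporter allele. IMQ mice received 50 mg of Aldara cream with 5% IMQ on the skin daily, and Sham mice a Vaseline cream per the labels. The study's methods name a Sham cream for the treatment and, for the sorted cells, untreated controls. Blood was taken on day 5 and Ly6Chi cells were sorted as lineage-negative, CD11b+, GFP+, CD115+, CD43- and MHC-II-. Lyz2-Cre is active across myeloid cells, so that neutrophils and macrophages of these mice can carry the deletion as well, while other tissues keep Notch2. The study states in general that its replicates are biological, while the labels do not say whether a library was 1 mouse or a pool, and p-values measure the spread between these libraries.

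Ly6Chi or classical monocytes are short-lived blood cells that leave the bone marrow through Ccr2, enter inflamed tissue, and give rise to macrophages or, with Notch2 signaling, to patrolling Ly6Clo monocytes. IMQ is a ligand of the endosomal RNA sensor Toll-like receptor 7, and repeated application to mouse skin gives a psoriasis-like inflammation with systemic release of cytokines and growth factors. Type I interferon drives genes with interferon-stimulated response elements (ISRE), C/EBP factors drive granule and acute-phase genes in myeloid cells, and the coactivator Ciita drives MHC class II genes.

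Values below are normalized read counts, given for replicates 1 to 4 in that order, and differences are IMQ minus Sham on the log2(value + 1) scale. Replicates 1 and 2 carry library numbers of a first series and replicates 3 and 4 of a second. Genes were tested with limma, and a gene was called where the Benjamini-Hochberg adjusted p was at most 0.05 and the log2 difference at least 0.6 in size. A gene entered the test if any of the 24 libraries held 50 or more, which left 11230 of 53715 genes. A gene near 0 in Sham could thus enter through IMQ libraries alone, which favors rises among low genes. Notch2 itself was measured first. N2ΔMy Sham libraries held 10165, 8603, 9428 and 8996 normalized counts of Notch2 and N2ΔMy IMQ libraries 8311, 7240, 7611 and 7303, against 13799 to 16214 in wt Sham. All 8 N2ΔMy libraries thus lay below all 4 wt Sham libraries, with much Notch2 RNA remaining in cells sorted from the deleted mice. Between the N2ΔMy groups Notch2 was lower after IMQ by 0.29 (SE 0.08, limma adjusted p = 0.0477), without overlap but under the fold threshold.

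Defining Ly6Chi monocyte markers were present throughout. Their 9 genes summed to 94376-108596 in Sham and 96056-107642 in IMQ libraries, and none was at 0. These sums hide moves in both directions. Of the 9, 2 were called higher and 2 lower, against 4.15% and 4.55% of all genes. The log2 difference was below 0 in 7 (median -0.19). Inferred depth was 10871646 to 19759572 reads over genes for the 8 libraries. In bulk RNA such as this, fewer cells of a type and less RNA per cell cannot be told apart.

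After IMQ, 977 genes were called in N2ΔMy Ly6Chi monocytes, 8.7% of those tested. Of these, 466 were higher (4.15%) and 511 lower (4.55%). In 941 of the 977 the 4 IMQ and the 4 Sham libraries did not overlap, against 19.5% of all tested genes. The median log2 difference over all genes was 0.01 and the median size among called genes was 1.15. All 977 had the same direction within both library series. The series are parts of the 8 libraries that gave the calls, so this agreement is no separate evidence. A fit with replicate numbers as a block called 1111 (9.89%).

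**Figure D1:**
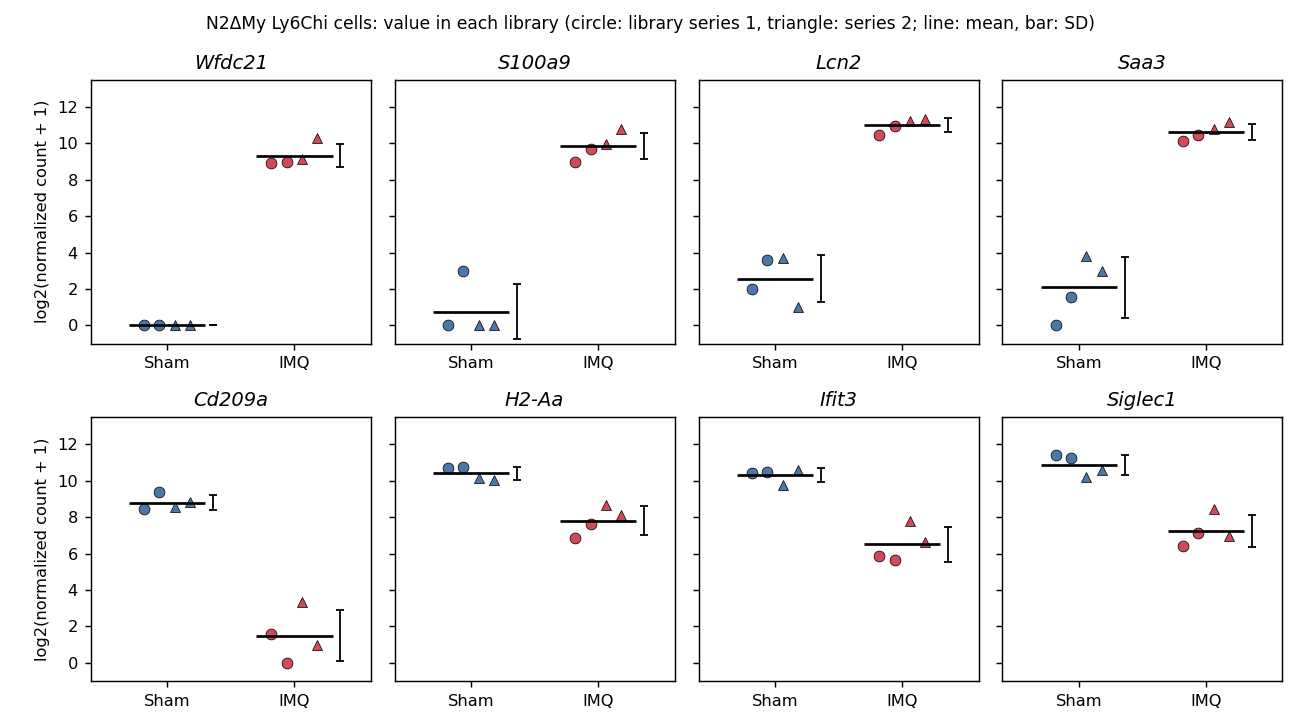
Log2(normalized count + 1) of 8 genes in each Sham and IMQ library of N2ΔMy Ly6Chi monocytes, with circles for the first and triangles for the second library series, lines for the mean and bars for the SD of 4 libraries. Wfdc21, S100a9, Lcn2 and Saa3 lie at 0 to 13 normalized counts in Sham and at 476 or more after IMQ, whereas Cd209a, H2-Aa, Ifit3 and Siglec1 are lower in every IMQ library.

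Sequences upstream of 8 called genes are shown because members of the main groups share letters there. They were read from RefSeq windows of 250 bases before to 50 bases after each start (GRCm38.p6) and are written 5′ to 3′ on the strand of the gene. Capitals mark matches on either strand to GAAANNGAA (ISRE), TTGCNNAA (C/EBP) or CCAAT. The first 3 genes are interferon-stimulated and fell, the next 3 are acute-phase or granule genes and rose, and the last 2 are cell cycle genes and rose. The stretches of Ccnb2 and Ube2c hold 2 of their 3 and 6 CCAAT matches.
Ifit3 (chr19:34583349-34583460, plus strand): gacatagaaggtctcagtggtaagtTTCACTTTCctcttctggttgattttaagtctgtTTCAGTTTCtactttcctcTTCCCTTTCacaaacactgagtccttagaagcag
Rsad2 (chr12:26456538-26456596, minus strand): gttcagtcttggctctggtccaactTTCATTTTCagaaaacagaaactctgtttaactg
Cxcl10 (chr5:92349069-92349127, minus strand): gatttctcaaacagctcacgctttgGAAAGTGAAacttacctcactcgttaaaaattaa
S100a9 (chr3:90695925-90695971, minus strand): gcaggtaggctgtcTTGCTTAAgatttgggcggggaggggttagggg
Lcn2 (chr2:32387923-32387980, minus strand): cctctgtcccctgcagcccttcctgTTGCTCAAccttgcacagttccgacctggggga
Saa3 (chr7:46715743-46715800, minus strand): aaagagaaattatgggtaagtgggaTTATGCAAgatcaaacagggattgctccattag
Ccnb2 (chr9:70421546-70421633, minus strand): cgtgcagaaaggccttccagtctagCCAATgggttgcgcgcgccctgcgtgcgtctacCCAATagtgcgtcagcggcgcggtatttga
Ube2c (chr2:164769816-164769901, plus strand): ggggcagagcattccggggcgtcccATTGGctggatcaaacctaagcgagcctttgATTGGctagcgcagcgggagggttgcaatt
Across the 7744 tested genes with such a window, 9.32% held ISRE letters, 10.1% C/EBP letters and 43.1% CCAAT. Among fallen interferon-stimulated genes with a window, 20 of 33 held ISRE letters, against 21% of all called-lower and 9.38% of all called-higher genes. C/EBP letters stood in 6 of 15 risen neutrophil and granule genes, among them S100a9, Lcn2, Saa3, Mmp8 and Fcnb, and in 14.5% of all called-higher genes. CCAAT stood in 12 of 17 risen cell cycle genes. Letters of E2F type (TTTNNCGC) stood in 6 of the 17, against 10.3% of all genes with a window. Matches of different kinds may overlap. They are matches of letters and were not tested.

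Genes of neutrophil granules and the acute phase rose. Of 49 list genes in the data, 31 were tested. Wfdc21 and S100a9 entered through IMQ mice alone, since no Sham library of either genotype reached 50. Such entry favors rises, so the shares here hold for tested members only. Among the 31, 20 were called higher and 1 lower, against 4.15% and 4.55% of all genes. The groups were higher without overlap in 20, against 9.87% of all genes, and the list's median log2 difference was 2.07. Wfdc21, a whey acidic protein family gene at chr11:83746940-83752642, was listed at 0 in all 4 Sham libraries and at 476, 509, 558 and 1257 after IMQ. Its log2 difference of 9.33 (limma adjusted p = 1.8e-06) depends on the pseudocount and is no fold change. S100a9, a subunit of calprotectin, stood at 0, 7, 0 and 0 in Sham and 505, 830, 996 and 1739 in IMQ libraries. S100a8, the other subunit, went from 0, 5, 12 and 0 to 402, 613, 1819 and 3443. Both calprotectin genes were thus close to absent before treatment and separated completely after it, with log2 differences of 9.10 (SE 0.68) and 8.55 (SE 0.93). Of 9 S100 genes tested, 5 were called higher and none lower (median 0.66), with 3 higher without IMQ replicate 4.

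Lcn2, which binds bacterial siderophores and so withholds iron, measured 3, 11, 12 and 1 in Sham and 1427, 1966, 2370 and 2640 in IMQ libraries, a log2 difference of 8.43 (SE 0.55, limma adjusted p = 3.07e-05). Saa3, an acute-phase serum amyloid A, measured 0, 2, 13 and 7 against 1134, 1434, 1743 and 2287. Lrg1, a secreted glycoprotein of the acute phase, measured 0, 0, 6 and 0 against 677, 809, 427 and 970. No Sham library came near any IMQ library for these 3 genes, which were named among the largest rises without overlap. Chil3, a chitinase-like protein of activated monocytes and neutrophils, was already present at 1743, 2011, 672 and 1469 and reached 8812, 11517, 14922 and 16599, a log2 difference of 3.21 (SE 0.32, limma adjusted p = 0.000223). Mmp8, the neutrophil collagenase, went from 706, 1193, 1329 and 1096 to 2420, 2609, 2936 and 3253. Fcnb, a ficolin of myeloid precursors, went from 12, 31, 45 and 19 to 111, 137, 125 and 138. The myeloid transcription factor gene Cebpe, active in granulocyte precursors, rose from 7, 21, 9 and 8 to 56, 39, 52 and 63. In each of these 4 genes the groups were apart.

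The 1 gene of the list that fell was Cd177, a neutrophil surface glycoprotein. It measured 3641, 3456, 3451 and 3981 in Sham and 2031, 1502, 2725 and 2335 in IMQ libraries, a log2 difference of -0.79 (limma adjusted p = 0.0085). Markers of other cells were measured beside these genes. A list of 13 neutrophil markers summed to 9651-10435 in Sham and 8722-9924 in IMQ libraries, while 3 of its 6 tested members were called higher and 1 lower (median 1.74). Ly6g, a defining neutrophil marker, was at 1, 0, 0 and 0 in Sham and at 0 in all 4 IMQ libraries. Camp and Ngp, which encode secondary granule proteins, did not exceed 8 in any of the 8 libraries. In the same marker list Elane, neutrophil elastase, went from 0, 0, 1 and 0 to 28, 22, 8 and 21, and Mpo, myeloperoxidase, from 3, 5, 5 and 0 to 20, 30, 36 and 21. Neither passed the filter for testing. Progenitor markers, 7 genes, summed to 97-179 in Sham and 187-299 in IMQ libraries. Of the 3 tested, 1 had a log2 difference above 0, Prtn3, the azurophil granule protease proteinase 3, which was called higher (21, 56, 58 and 55 against 166, 206, 224 and 164), and the other 2 lay below 0. Platelet markers summed to 32-75 in Sham and 91-182 in IMQ libraries, with 1 of 4 tested members called higher. Erythroid markers summed to 0-310 and 4-1576, with all 5 tested members below 0 and none called. The part of neutrophil and platelet RNA in the rises was not tested.

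Fpr1, the high-affinity formyl peptide receptor, measured 27, 17, 10 and 14 in Sham and 278, 301, 148 and 363 in IMQ libraries, a log2 difference of 3.94 (SE 0.36, limma adjusted p = 0.000146). Fpr2, its relative for lipid and peptide ligands, went from 77, 90, 85 and 129 to 524, 509, 412 and 650. The C5a receptor gene C5ar1 went from 409, 215, 260 and 233 to 838, 843, 941 and 1017. Each of the 3 receptor genes was higher in every IMQ library than in any Sham library. Of 18 complement genes tested, 5 were called higher and none lower, against 4.15% and 4.55% of all genes, with a median of 0.68. C4b, complement component 4, was the largest of them, from 98, 77, 93 and 83 to 962, 764, 1302 and 970, 11.4-fold between means (log2 difference 3.48, SE 0.17, limma adjusted p = 8.15e-06). Itgam, the CD11b chain of complement receptor 3 and part of the sort gate, rose by 0.71, from 2978, 3429, 3472 and 3456 to 5343, 5924, 5139 and 5356.

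Trem1, an amplifier of neutrophil and monocyte activation, stood at 7, 5, 0 and 1 in Sham and 41, 32, 21 and 46 in IMQ libraries. Trem3, a relative of Trem1, went from 8, 7, 16 and 2 to 34, 43, 43 and 66. Cd300lf, an inhibitory receptor, went from 226, 265, 296 and 269 to 1128, 1073, 851 and 985. Cd38, an ectoenzyme that consumes NAD, was at 0, 3, 0 and 0 and then at 110, 207, 151 and 231. The 4 genes did not overlap between groups. Of 41 C-type lectins and paired receptors tested, 8 were called higher and 6 lower, with a median of -0.01. Abca13, a lipid transporter family member, had one of the smallest p-values among rises, going from 14, 20, 16 and 9 to 517, 688, 349 and 618 (log2 difference 5.12, limma adjusted p = 1.7e-05). F11r, a junctional adhesion molecule, went from 9, 10, 36 and 33 to 472, 396, 307 and 325. Spint1, a serine protease inhibitor, was at 0, 0, 0 and 5 and then at 70, 184, 48 and 165. These 3 were named among the largest rises without overlap, so the separation of their groups follows from that choice.

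Among genes of iron handling and oxidant defense, 7 of 33 were called higher and none lower (median 0.24). Mt1, a metallothionein that binds zinc and copper, went from 9, 7, 7 and 15 to 104, 59, 130 and 256. Cp, ceruloplasmin, was listed at 0 in all Sham libraries and at 22, 34, 41 and 40 after IMQ. Socs3, the feedback inhibitor of interleukin-6 and G-CSF receptor signaling, went from 476, 525, 805 and 484 to 1529, 1926, 1497 and 1915, a log2 difference of 1.61. Vcan, the proteoglycan versican of classical monocytes, rose from 4363, 5400, 6493 and 3390 to 22178, 24987, 13705 and 22333 (2.09, SE 0.23, limma adjusted p = 0.00032). Igf2r, the mannose 6-phosphate receptor, went from 32, 38, 27 and 33 to 366, 361, 287 and 456. All 5 were apart between groups. Zfp36l1, an RNA-binding protein that promotes decay of cytokine transcripts, increased from 410, 449, 415 and 386 to 1463, 1306, 1324 and 1671 (1.79, SE 0.10), with little spread in either group.

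**Figure D2:**
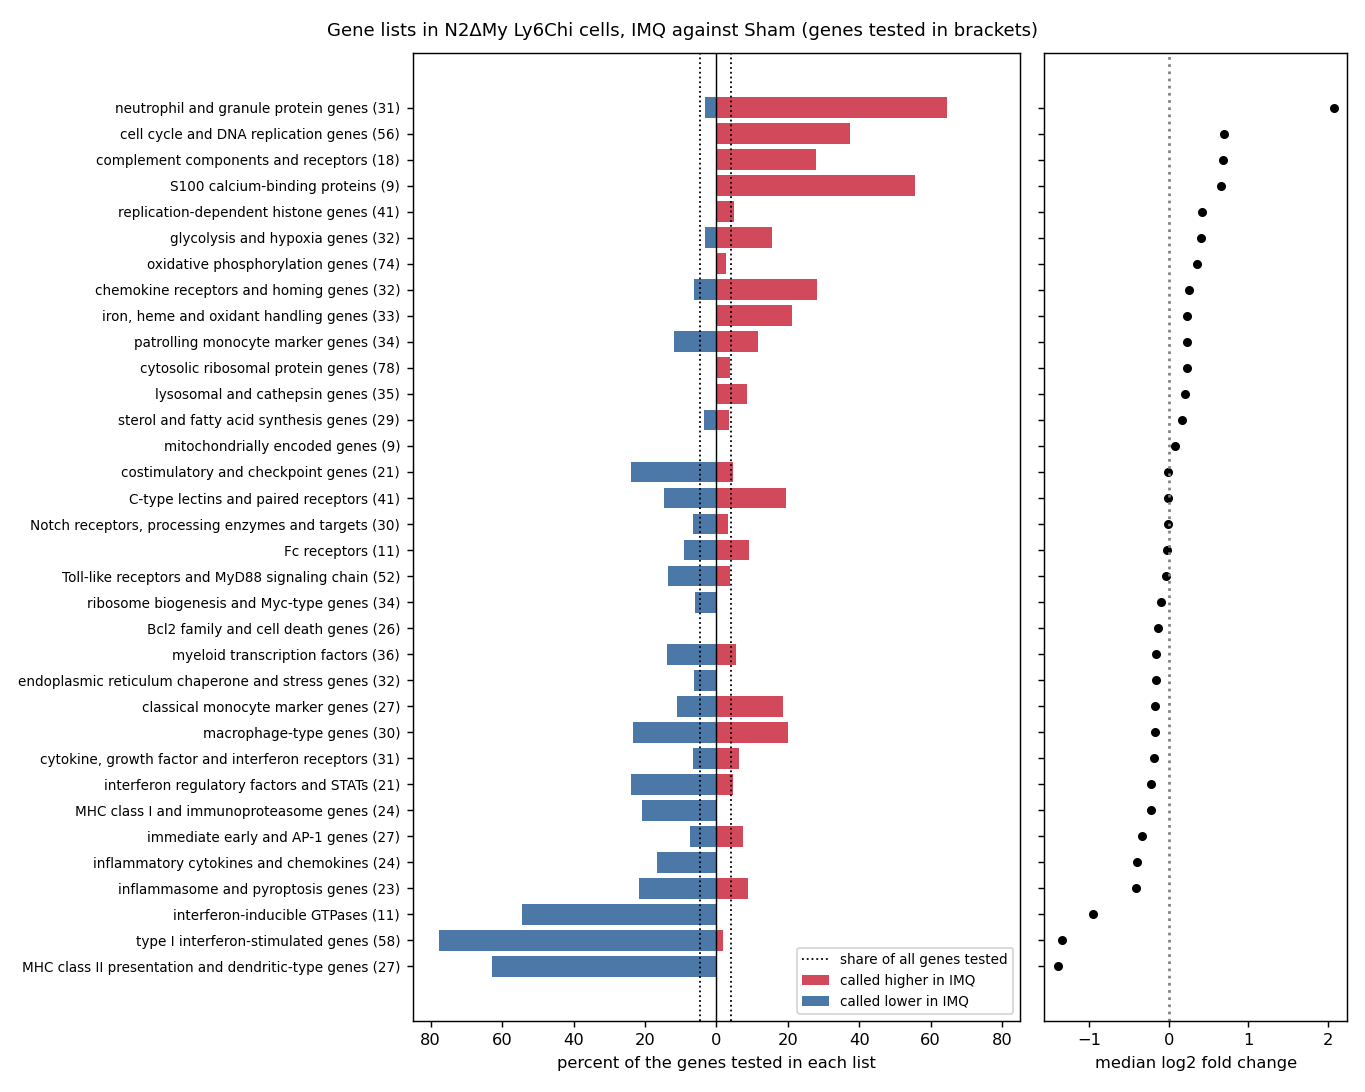
Gene lists in N2ΔMy Ly6Chi monocytes, IMQ against Sham, with the percent of tested members called higher (to the right) or lower (to the left) in the left panel, dotted lines for the share of all genes, and the median log2 difference in the right panel. Interferon-stimulated genes (45 of 58 lower) and MHC class II and dendritic-type genes (17 of 27 lower) have the lowest medians, and neutrophil and granule genes (20 of 31 higher) the highest.

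More cell cycle genes were called higher than the background share. Of 56 tested cell cycle and DNA replication genes, 21 were called higher and none lower, against 4.15% higher over all genes, and the median log2 difference was 0.70. Mki67, the proliferation antigen, measured 178, 189, 325 and 247 in Sham and 1260, 1609, 900 and 1366 in IMQ libraries, a log2 difference of 2.46 (SE 0.22, limma adjusted p = 0.000142). Top2a, the topoisomerase of mitotic cells, measured 67, 58, 63 and 59 against 113, 240, 153 and 216. Mki67 was therefore measurable in Sham cells, and every IMQ library exceeded every Sham library in both genes. The S and G2 phase cyclin Ccna2 was at 0, 0, 2 and 0 and then at 48, 65, 24 and 32. Ccnb2, a mitotic cyclin, went from 4, 6, 18 and 2 to 99, 173, 65 and 138 (4.07, SE 0.55, limma adjusted p = 0.00109). Ube2c, which loads ubiquitin onto targets of the anaphase-promoting complex, went from 6, 3, 6 and 28 to 129, 135, 116 and 179. Birc5, survivin, went from 5, 4, 0 and 8 to 46, 53, 36 and 39. These are low values before treatment, with complete separation after it. Replication-dependent histone genes were called higher in 2 of 41, near the 4.15% of all genes (median 0.42). That count was 6 with the replicate number as a block, 8 with the library series as a covariate, 0 without Sham replicate 1, 2 or 3 or IMQ replicate 4, and 1 without IMQ replicate 2 or 3. The median over the 3 tested progenitor markers was -0.69, although their sum, given above, was higher after IMQ. Their part in this rise was not tested.

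Interferon-stimulated genes fell. Of 58 tested, 45 were called lower and 1 higher, and 44 were lower without overlap, against 9.64% of all genes. The median log2 difference was -1.34. Ifit3, an antiviral RNA-binding family member at chr19:34583531-34588731, held 1359, 1455, 857 and 1534 normalized counts in Sham and 58, 50, 223 and 100 in IMQ libraries, 12.1-fold lower between means (-3.81, SE 0.41, limma adjusted p = 0.00032). Reads of Ifit3 and its near copy Ifit3b (355, 517, 218 and 363 against 3, 9, 58 and 37) may be divided between them, which leaves each value uncertain. Rsad2, viperin, went from 1064, 998, 612 and 1144 to 51, 53, 133 and 116 (10.8-fold, log2 difference -3.51, SE 0.34). Both Ifit3 and Rsad2 carry ISRE letters in the stretches printed above. The chemokine gene Cxcl10 measured 175, 235, 105 and 270 in Sham and 5, 14, 31 and 17 in IMQ libraries, 11.7-fold lower. Siglec1, the interferon-inducible sialic acid receptor CD169, measured 2693, 2402, 1199 and 1561 against 85, 137, 351 and 126, 11.2-fold lower (-3.62, SE 0.40, limma adjusted p = 0.000354). In all of these genes the groups were apart, and IMQ replicate 3 kept the highest of the IMQ values.

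Of 21 interferon regulatory factors, STATs and their regulators, 5 were called lower and 1, Socs3, higher (median -0.22). Irf7, which amplifies interferon production, went from 6472, 5588, 4754 and 6436 to 1049, 1253, 2707 and 1464 (-1.93, SE 0.25, limma adjusted p = 0.000867). Stat2, a component of the complex that binds the ISRE, went from 4169, 3366, 2901 and 3815 to 1203, 1323, 1304 and 861. Socs1, the feedback inhibitor of interferon receptor signaling, went from 67, 48, 39 and 44 to 3, 14, 14 and 9. The groups did not overlap for any of the 3. Rnf213, a large ubiquitin ligase induced by interferon, fell with one of the smallest p-values, from 35425, 31770, 30263 and 28236 to 11466, 12435, 12512 and 10875 (-1.41, limma adjusted p = 4.3e-05).

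Interferon-inducible GTPases, which attack vacuoles of intracellular microbes and respond to interferon-γ as well, were called lower in 6 of 11 and higher in none (median -0.95). Gbp9 measured 1119, 1041, 904 and 1011 in Sham and 229, 289, 345 and 319 in IMQ libraries. Igtp measured 701, 582, 542 and 715 against 208, 232, 346 and 277. Neither gene overlapped between groups. Of 24 MHC class I and immunoproteasome genes, 5 were called lower and none higher (median -0.23). Nlrc5, the coactivator of MHC class I genes, went from 3185, 2493, 2663 and 3040 to 1587, 1611, 1543 and 1099. H2-T24, a non-classical class I gene with close relatives among which reads may be divided, went from 3180, 2840, 2379 and 3216 to 704, 718, 1071 and 759. Both were lower in all 4 IMQ libraries.

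The single interferon-stimulated gene called higher was Ifitm1, a membrane protein that hinders virus entry. It measured 73, 93, 114 and 36 in Sham and 157, 193, 148 and 160 in IMQ libraries, a log2 difference of 1.16 (limma adjusted p = 0.0381). The call was lost without any one of Sham replicates 1 and 2 or IMQ replicates 1 to 4, where the adjusted p ran from 0.0534 to 0.0948.

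Sensing receptors differed from each other. Tlr7, the receptor for IMQ, held 2453, 2317, 2324 and 2731 in Sham and 2083, 1949, 2204 and 2434 in IMQ libraries, a log2 difference of -0.18 that did not pass (limma adjusted p = 0.24). Tlr9, the endosomal DNA sensor, went from 2595, 2605, 1874 and 2280 to between 799 and 1124. Tlr3, which senses double-stranded RNA, went from 67, 58, 63 and 71 to 20, 18, 26 and 25. Tlr9 and Tlr3 were apart between groups, whereas the Tlr7 values overlapped. Tlr11, a sensor of profilin and flagellin, went from 89, 72, 70 and 64 to 9, 12, 25 and 14. Cd14, the lipopolysaccharide co-receptor, rose from 268, 442, 264 and 206 to 580, 517, 762 and 612. Over the 52 tested Toll-like receptor and MyD88 pathway genes, 7 were called lower and 2 higher (median -0.04). Zbp1, a sensor of Z-form nucleic acids, fell from 2940, 2725, 2919 and 3696 to 1278, 1382, 2373 and 1551. Ripk3, its partner in necroptosis, rose from 259, 209, 272 and 147 to 525, 538, 470 and 503. Pycard, the inflammasome adaptor ASC, rose from 768, 909, 876 and 981 to 1364, 1413, 1721 and 1611. Of 23 inflammasome and pyroptosis genes, 5 were called lower and 2 higher (median -0.41), with 2 lower without Sham replicate 1 or IMQ replicate 4, and 3 without Sham replicate 3 or IMQ replicate 3 or under TMM scaling.

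Of 24 inflammatory cytokine and chemokine genes, 4 were called lower and none higher (median -0.40). Tnfsf10, the death ligand TRAIL, went from 205, 223, 123 and 108 to 8, 23, 26 and 16. Csf1, the growth factor of monocytes and macrophages, went from 117, 110, 142 and 115 to 19, 28, 33 and 47. Both genes separated the groups.

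MHC class II and dendritic-type genes fell, in cells that the sort had gated as MHC-II-negative on the surface. Of 27 tested, 17 were called lower and none higher, against 4.55% and 4.15% of all genes, with a median of -1.39. Cd209a, a DC-SIGN family lectin of monocyte-derived dendritic cells at chr8:3743397-3748984, went from 346, 677, 378 and 448 to 2, 0, 9 and 1, the largest of the falls named here (-7.33, SE 0.61, limma adjusted p = 9.6e-05). H2-Aa, an MHC class II α chain, went from 1673, 1721, 1132 and 1058 to 114, 196, 409 and 275, 5.62-fold lower between means (-2.60, SE 0.34). H2-Eb1, a β chain, went from 819, 864, 569 and 417 to 57, 94, 147 and 89. Cd209a and the MHC-II chains were lower in each IMQ library than in any Sham library, and the MHC-II genes were least reduced in IMQ replicate 3. Cd74, the invariant chain that guides MHC-II molecules, went from 11733, 13015, 7982 and 7535 to 2319, 2697, 3934 and 2685, 3.46-fold lower (-1.78, SE 0.21, limma adjusted p = 0.000462). Cd83, which stabilizes surface MHC-II, went from 101, 90, 72 and 91 to 5, 1, 6 and 2. Flt3, the receptor for the dendritic cell growth factor Flt3 ligand, went from 638, 870, 530 and 533 to 397, 360, 342 and 280. Clec9a, a receptor of conventional dendritic cells for dead cells, went from 50, 113, 25 and 77 to 2, 1, 11 and 8. All 4 separated the groups.

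Markers of cells that the sort could have carried along were measured beside these genes. The summed value of 8 conventional dendritic cell markers was 1834-2819 in Sham and 586-766 in IMQ libraries, and 4 of the 5 tested were called lower, with Xcr1 and Ccr7 at 0 in all 4 Sham libraries and Ccr7 at 0 in all 4 IMQ libraries. This marker list shares genes with the dendritic-type list. Macrophage markers, 9 genes, summed to 547-1165 and 136-221, but 4 of the 6 tested had a log2 difference above 0 (median 0.92), with 2 called lower and 1 higher. Natural killer cell markers summed to 1-78 in Sham and 0-45 in IMQ libraries, and basophil, mast cell and eosinophil markers to 17-99 and 9-16. B cell markers summed to 2177-3894 and 1270-2796, T cell markers to 4-8 and 2-9, and plasmacytoid dendritic cell markers to 2108-2362 and 1560-2194. The sums of these 5 other cell types overlapped between groups apart from the basophil, mast cell and eosinophil markers, and no tested B cell or plasmacytoid marker was called. The part of dendritic cells in the fall was not tested. Of the 36 myeloid transcription factor genes tested, 5 were called lower and 2 higher (median -0.16). Irf4, a factor of dendritic cells and lymphocytes, went from 1923, 2208, 2175 and 2254 to 847, 816, 1276 and 1048. Batf3, a factor of cross-presenting dendritic cells, went from 393, 490, 491 and 512 to 93, 88, 219 and 188, and Bach2, a repressor in lymphoid and myeloid cells, from 200, 168, 124 and 151 to 39, 46, 50 and 48. These 3 genes were apart between groups.

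Of 21 costimulatory and checkpoint genes, 5 were called lower and 1 higher (median -0.01). Cd40, the receptor for CD40 ligand, measured 511, 539, 518 and 687 in Sham and 181, 133, 322 and 259 in IMQ libraries. Slamf7, a self-ligand receptor, measured 277, 363, 288 and 519 against 45, 27, 140 and 54. Mrc1, the mannose receptor, measured 656, 1070, 444 and 524 against 60, 81, 76 and 49. All 3 were apart. Apoe, the lipid-carrying apolipoprotein E, fell from 35214, 28890, 23759 and 33816 to 8113, 5645, 12730 and 11554 (-1.73). Axl, which recognizes dying cells, fell from 1681, 1300, 511 and 1231 to 277, 203, 469 and 249. Hpgd, which inactivates prostaglandins, fell from 2421, 3480, 1482 and 2247 to 206, 222, 462 and 362. Among 30 macrophage-type genes the directions were divided, with 7 called lower and 6 higher (median -0.17). The risers included Gpnmb, a glycoprotein of lysosomal stress, from 10, 1, 0 and 0 to 155, 92, 48 and 129, and Stab1, a scavenger receptor, from 45, 23, 11 and 20 to 142, 136, 166 and 105. Ctsd, the lysosomal protease cathepsin D, rose from 727, 949, 752 and 708 to 1917, 1755, 2079 and 2093.

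Several fallen genes outside these lists had small p-values or large folds. Abca9, a lipid transporter family member, went from 4501, 5022, 3923 and 3748 to 1147, 1127, 1411 and 1044. Frmd4a, a scaffold of cell polarity, went from 2765, 2975, 2411 and 2840 to 843, 898, 1017 and 848. Tmem176b, a membrane protein of dendritic cells, went from 2837, 3067, 2647 and 2967 to 1088, 1054, 1321 and 1106. The spread within each group was small beside the difference. Aplnr, the apelin receptor, varied more among Sham libraries, at 174, 141, 31 and 105, and stood at 2, 8, 17 and 8 after IMQ.

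Of 74 oxidative phosphorylation genes, 73 had a log2 difference above 0 and the median was 0.36, but 2 were called higher (2.70%, against 4.15% of all genes). The count was 1 without Sham replicate 1 or IMQ replicate 4, 4 without IMQ replicate 1 and 5 without Sham replicate 2, and it was 0 in the first library series and 17 in the second. The groups were higher without overlap in 13 of the 74, against 9.87% of all genes. Atp5j, an ATP synthase subunit, was one, from 1181, 1235, 1169 and 1217 to 1596, 1811, 2147 and 2136. The 9 mitochondrially encoded genes had a median of 0.08 with none called. Glycolysis and hypoxia genes were called higher in 5 of 32 and lower in 1 (median 0.40). Gapdh rose from 1302, 1344, 1283 and 1461 to 2057, 2336, 3056 and 3151. Aldoa, fructose-bisphosphate aldolase, rose from 3356, 3428, 3819 and 4104 to 6246, 5934, 7575 and 7175. The lactate exporter gene Slc16a3 rose from 657, 691, 608 and 604 to 1268, 1226, 1214 and 1123. These 4 genes separated the groups with log2 differences between 0.67 and 0.95. Of 78 cytosolic ribosomal protein genes, 3 were called higher (3.85%, median 0.23), and 5 without Sham replicate 2, Rplp1 among them (5473, 6121, 6007 and 6968 against 9500, 9551, 9946 and 10206). Ribosome biogenesis genes were called lower in 2 of 34 (5.88%, median -0.10). None of 26 Bcl2 family genes was called in either direction (median -0.13), and of 32 endoplasmic reticulum stress genes 2 were called lower (6.25%, median -0.16). Sterol and fatty acid synthesis genes had 1 of 29 called in each direction (median 0.17), and lysosomal genes 3 of 35 higher and none lower (8.57%, median 0.20). These are few calls, beside 4.15% higher and 4.55% lower over all genes.

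Genes that define monocyte subsets moved unevenly. Ly6c2, which encodes the Ly6C antigen of the sort, held 3358, 3168, 6403 and 8619 in Sham and 2509, 2370, 9161 and 6302 in IMQ libraries, a log2 difference of -0.19 (limma adjusted p = 0.843). Its values followed the library series more than the treatment. Ccr2 held 25496, 31411, 22178 and 24602 against 17456, 18536, 18924 and 20176, lower without overlap by 0.46 and hence under the fold threshold (limma adjusted p = 0.028). Nr4a1, the nuclear receptor that Ly6Clo monocytes require, held 2762, 3270, 1802 and 2801 against 1752, 1675, 3868 and 3220. It was lower after IMQ in the first library series, by 0.81 (limma adjusted p = 0.00611), and not lower in the second, where the difference was 0.65 (adjusted p = 0.0931). The pooled difference of -0.08 (adjusted p = 0.897) covers both, and whether the series differ was not tested. Ace, angiotensin-converting enzyme of patrolling cells, held 5001, 2539, 3519 and 4191 against 2067, 1915, 4040 and 2923 with overlap.

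Of 34 patrolling monocyte marker genes tested, 4 were called higher and 4 lower (median 0.23), and of 27 classical marker genes 5 higher and 3 lower (median -0.17). The 4 patrolling genes called lower became 2 without Sham replicate 1, 2 or 4 or IMQ replicate 1 or 2, and were 7 in the first library series and 1 in the second, where 7 were called higher. The 3 classical genes called lower became 6 without IMQ replicate 3, and were 9 in the first series and 1 in the second. Markers of Ly6Clo monocytes summed to 12635-16779 in Sham and 11572-21453 in IMQ libraries. Chemokine receptor and homing genes were called higher in 9 of 32 and lower in 2 (median 0.26), against 4.15% and 4.55% of all genes. Cytokine and growth factor receptors had 2 and 2 of 31, Fc receptors 1 and 1 of 11, and immediate-early genes 2 and 2 of 27. Those are few calls beside the same shares. Cd300e, an activating receptor of Ly6Clo monocytes, rose from 2, 1, 4 and 0 to 49, 81, 139 and 181. In N2ΔMy Ly6Clo monocytes of IMQ mice it measured 5201 to 6247. Fcgr4, an Fcγ receptor of patrolling cells, rose from 259, 145, 152 and 194 to 510, 618, 746 and 698. Cx3cr1, the fractalkine receptor, whose reads come from 1 intact allele in these mice, held 3952, 4223, 3579 and 4758 against 1990, 1961, 3661 and 3091. It passed barely (-0.67, limma adjusted p = 0.0491), with overlapping groups, and the call was lost in 7 of the 8 fits without 1 library, all but that without IMQ replicate 3.

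Of 30 Notch pathway genes tested, 1 was called higher and 2 lower, shares near the 4.15% and 4.55% of all genes. The target gene Hes1 was at 39, 36, 64 and 53 in Sham and 44, 44, 110 and 82 in IMQ libraries, 0.46 higher on average, which did not pass (limma adjusted p = 0.447). Psen2, a catalytic subunit of the γ-secretase that releases the Notch intracellular domain, rose from 406, 445, 359 and 423 to 712, 653, 647 and 711. The ligand gene Jag1 fell from 75, 50, 67 and 40 to 7, 14, 4 and 12. Maml2, a Mastermind coactivator, fell from 209, 238, 218 and 203 to 116, 105, 153 and 108. The 3 called genes did not overlap between groups.

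Within the IMQ group, the libraries that stood highest differed between gene groups. Over the 45 fallen interferon-stimulated genes, the median log2 value minus the Sham mean was -1.90, -1.73, -1.11 and -1.68 in IMQ replicates 1 to 4, and replicate 3 held the highest value of the 4 in 40 genes. The 17 fallen MHC class II and dendritic-type genes gave medians of -2.08, -1.86, -1.33 and -1.87, with replicate 3 highest in 14. Over all 511 fallen genes replicate 3 was highest in 275. The 20 risen neutrophil and granule genes stood 2.41, 2.79, 2.66 and 3.35 above the Sham mean, with replicate 4 highest in 19. The 21 risen cell cycle genes gave 2.02, 2.81, 1.98 and 2.03, with replicate 2 highest in 16. The library with the highest granule genes was thus another than those with the highest cell cycle genes or the weakest loss of interferon genes. Erythroid markers summed to 1576 in IMQ replicate 4, which also held the highest granule genes, and to 4-32 in the other IMQ libraries, and their part was not tested. Same-numbered wt IMQ libraries had part of this pattern. The 21 cell cycle genes differed, with wt replicate 1 highest in 13 and wt replicate 2 in 6. For the same interferon-stimulated genes, wt replicate 2 was highest in 26 of 45 and replicate 3 in 19, with medians of -1.19 and -1.11. Replicate 3 was highest in 13 of the 17 MHC class II and dendritic-type genes and 267 of the 511 fallen genes, and replicate 4 was highest in 16 of the 20 granule genes, with erythroid markers at 790. Without N2ΔMy IMQ replicate 3 the calls were 46 lower for interferon-stimulated, 18 lower for MHC class II and dendritic-type, 19 higher for neutrophil and granule and 17 higher for cell cycle genes.

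**Figure D3:**
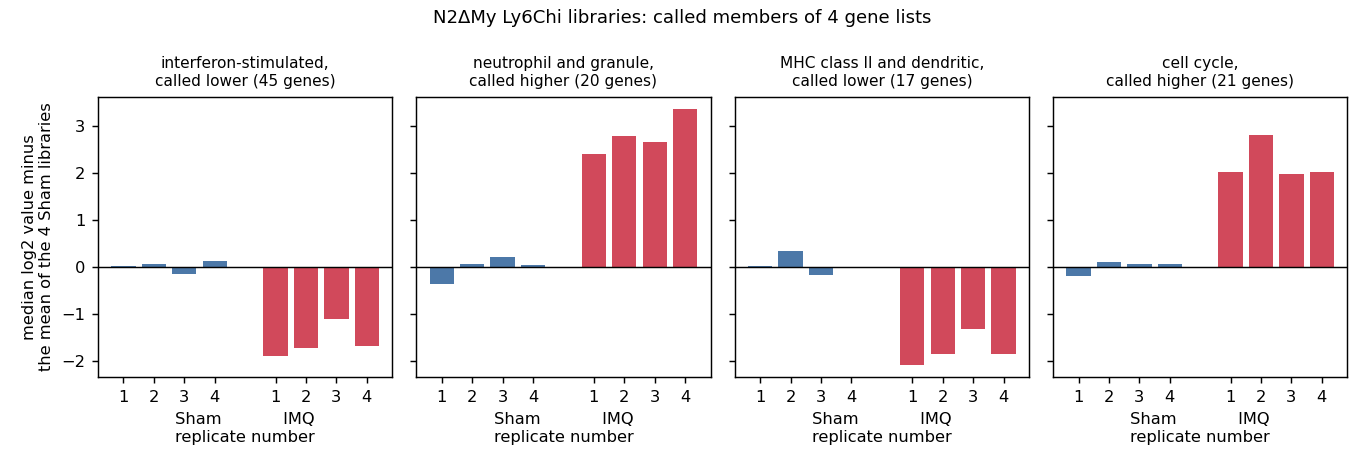
Bars give, for each N2ΔMy Ly6Chi library by replicate number, the median over the called members of a list of the log2 value minus the mean of the 4 Sham libraries. IMQ replicate 3 lies nearest 0 for interferon-stimulated genes (-1.11), and replicate 4 is highest for neutrophil and granule genes (3.35).

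The same contrast in wt Ly6Chi monocytes asks whether the response differs with Notch2. There 1066 genes were called (9.49%), 497 higher (4.43%) and 569 lower (5.07%), of which 734 were also called in N2ΔMy, that is 75.1% of the N2ΔMy list and 68.9% of the wt list. Among the 243 genes called in N2ΔMy and not in wt, 239 had the same sign in wt. The difference between the genotypes was tested by the interaction term of limma over the 16 Ly6Chi libraries. It called 0% of genes, and 177 had an unadjusted limma p under 0.05 (1.58%). That share is below the 0.05 that uniform p-values would give, so the p-values ran high. With library series as a covariate 334 genes lay under 0.05, and with the replicate block 380, with no gene called in either fit. The lack of calls is therefore no evidence that the genotypes respond alike. The median size of the interaction was 0.12 on the log2 scale, against 0.23 for the treatment difference in either genotype. In simulated data of this design, 119 of 200 genes with an interaction of 1 and 179 of 200 with an interaction of 2 were recovered, so that smaller interactions would often go uncalled.

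Group by group, the wt median was -1.35 for interferon-stimulated genes (44 lower of 58), -1.22 for MHC class II and dendritic-type genes (15 lower of 27), 1.51 for neutrophil and granule genes (19 higher of 31) and 0.59 for cell cycle genes (21 higher of 56). Counts differed more in other lists. Patrolling marker genes were called higher in 10 of 34 in wt (median 0.51) and 4 in N2ΔMy (0.23, with 7 in the second library series alone). Macrophage-type genes were called higher in 2 of 30 in wt and 6 in N2ΔMy, where the first library series alone gave 2. Complement genes were called higher in 2 of 18 in wt and 5 in N2ΔMy. The interaction called no member of these lists, and the difference of the counts was not tested. Wfdc21 reached 346, 349, 375 and 1163 in wt IMQ libraries. The wt log2 differences were 9.59 for S100a9, 7.48 for Lcn2, 7.16 for Saa3, -6.31 for Cd209a, -3.83 for Ifit3 and -2.29 for H2-Aa. Directions were the same as in N2ΔMy for all 6.

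**Figure D4:**
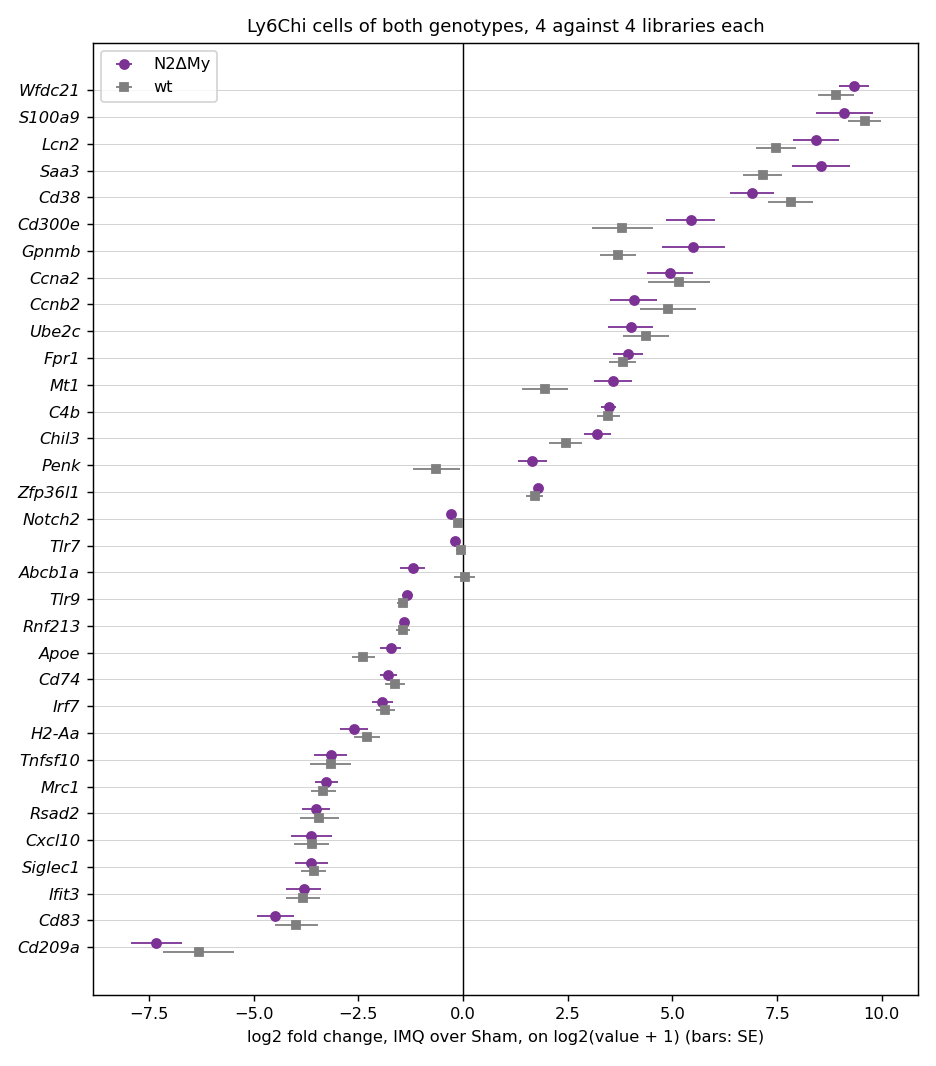
Log2 difference between IMQ and Sham for named genes (horizontal axis, bars for the SE) in Ly6Chi monocytes of N2ΔMy (circles) and wt mice (squares), 4 against 4 libraries each. The symbols of some genes lie close together, as for S100a9 at 9.10 and 9.59. Others are farther apart, among them Penk, Abcb1a, Gpnmb (5.50 and 3.70), Cd300e (5.43 and 3.81) and Saa3 (8.54 and 7.16).

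Of the 5 smallest interaction p-values, 3 belonged to genes called in wt and not in N2ΔMy, and the others to Ubald2 and Tti2, called in neither. Prune2 measured 5, 8, 9 and 18 in N2ΔMy Sham and 34, 14, 28 and 22 in N2ΔMy IMQ libraries, and 4, 1, 1 and 0 against 36, 39, 33 and 42 in wt (interaction -2.91, with an unadjusted limma p of 0.000629 and an adjusted p of 1). Tchh, trichohyalin, measured 236, 188, 185 and 277 against 183, 187, 161 and 186 in N2ΔMy and 292, 240, 242 and 259 against 103, 88, 139 and 119 in wt (interaction 0.92, with an unadjusted limma p of 0.00092 and an adjusted p of 1). Zfp658, a zinc finger gene, had an interaction of 0.65 with an unadjusted limma p of 0.00274 and an adjusted p of 1. The N2ΔMy groups of Prune2 and Tchh overlapped, and the wt groups did not. Penk and Abcb1a came after these and were called in N2ΔMy and not in wt. Penk, the enkephalin precursor, measured 22, 24, 11 and 19 in N2ΔMy Sham and 56, 45, 95 and 53 in N2ΔMy IMQ libraries (1.66, limma adjusted p = 0.0104). In wt it measured 33, 10, 35 and 33 against 9, 23, 35 and 8. The interaction was 2.29 with an unadjusted limma p of 0.00399 and an adjusted p of 1. Abcb1a, a drug efflux transporter, went from 76, 82, 124 and 96 to 24, 40, 51 and 51 in N2ΔMy and from 96, 76, 108 and 91 to 59, 105, 124 and 105 in wt. The log2 difference in N2ΔMy (limma adjusted p = 0.0224) was no longer called without Sham replicate 3, Sham replicate 4 or IMQ replicate 2, at adjusted p from 0.052 to 0.0636. None of these interactions passed the correction.

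N2ΔMy Ly6Clo monocytes of IMQ mice give a level to set beside the risen genes, without a Sham partner in the series. S100a9 measured 30, 139, 64 and 105 there, and Lcn2 216, 324, 114 and 167, below the 4 Ly6Chi IMQ libraries in both genes. Saa3 measured 512, 1080, 1383 and 340, which overlaps with Ly6Chi. Wfdc21 measured 128, 135, 90 and 97. H2-Aa measured 517 and 642 in the first library series and 6134 and 3083 in the second, all above the 4 IMQ Ly6Chi libraries.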

How the data were processed

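RNA of sorted monocytes was converted to libraries with a SMARTer Pico kit for stranded total RNA and sequenced as single reads. The authors trimmed reads with Trim Galore 0.4.4, aligned them with STAR 2.5.3a to GRCm38 with GENCODE annotation, and deposited counts per gene normalized with DESeq2 and rounded to whole numbers, treated here as a score that is not a raw count, since no raw counts were used. Count models were therefore not applied. Depth was inferred from the steps between low values and limits low genes most. All 24 columns were mapped to samples by title, and 0 columns of per-sample values were left unmapped. Columns with the authors' own comparison (fold change, error, test statistic and p-values) and their overall mean were not used. The normalization divides by size factors over 24 libraries and holds no gene length, so levels are not compared between genes.

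Values were analysed as log2(value + 1) with limma 3.58.1 (R 4.3.3; lmFit and eBayes with trend, Benjamini-Hochberg adjustment over 11230 genes), 4 against 4 libraries for each genotype and 16 libraries for the interaction. An exact permutation test of 4 against 4 cannot go below p = 0.0286. Tables and figures used Python 3.11.15, pandas 2.3.3 and matplotlib 3.10.9. In simulated data of 11230 genes, 191 of 200 genes changed by 2 and 148 of 200 changed by 1 on the log2 scale were recovered for IMQ against Sham, and no gene was called where none was changed. Replicate numbers come from the labels. Same-numbered N2ΔMy libraries deviated together from their group means (correlations 0.52, 0.28, 0.16 and 0.44), but 2 of the 4 IMQ libraries correlated best with their own number, and within library series the mean correlation was -0.011, so that the shared deviation lay between the series. A fit with the replicate number as a block was an alternative. Other alternatives were TMM scaling, other pseudocounts, filters, thresholds and variance models, library series as a covariate or alone, all 24 libraries in 1 fit, and leaving out each library.

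The groups, 34 gene lists and 13 marker lists were chosen with earlier results of these data known. Named genes are the 12 largest rises and falls among called, non-overlapping genes with a group mean of at least 100, the 6 smallest p-values per direction, the 10 smallest interaction p-values, up to 4 called members per list and direction, and a short fixed set. For the 12 largest rises and falls, separate groups therefore follow from the rule. Genes this rule names were in part left out, and Elane, Mpo, Ly6g, Camp, Ngp, Prtn3, Mki67, Top2a, Mmp8 and Fcnb were added after their values were seen. Promoter letters were counted in any RefSeq window of a gene on both strands, in 7744 genes matched by symbol.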

Additional observations from a re-analysis of the deposited data

Results flagged for a closer look

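Each of 105 named genes was examined in its 4 Sham and 4 IMQ libraries, 210 groups in all, for a single library far from the other 3 by Dixon's ratio of gap to range. Chance alone marks about 1 group in 20, and 16 were marked. Among IMQ libraries, Wfdc21 was at 1257 in replicate 4, above the other 3, H2-T24 at 1071 in replicate 3, also above, and Nlrc5 at 1099 in replicate 4, below. Among Sham libraries, the high values were 805 for Socs3 in replicate 3, 687 for Cd40 in replicate 4, 28 for Ube2c in replicate 4, 21 for Cebpe in replicate 2 and 10 for Gpnmb in replicate 1. Itgam was low at 2978 and Prtn3 at 21, both in Sham replicate 1, and Tchh, which was not called, at 161 in IMQ replicate 3. In 5 further genes a Sham library had a few normalized counts where the other 3 were at 0, namely S100a9 (7 in replicate 2), Lrg1 (6 in replicate 3), Cd38 (3 in replicate 2), Spint1 (5 in replicate 4) and Ccna2 (2 in replicate 3). In none of the called genes among the 16 did the marked library reach the values of the other treatment. No gene differed between the genotypes in its response by the interaction term after correction.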

How the results depend on the processing

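The count of 977 called genes in N2ΔMy Ly6Chi monocytes became 1544 with the adjusted p alone and 415 at an adjusted p of 0.01 and a log2 difference of 1. The wt count of 1066 became 1751 and 427, and 592 in the second library series. Cell cycle genes called higher fell from 21 to 13 in the second library series and to 13 at the stricter thresholds. The interaction called 1 gene without the filter on low values, RP23-417D2.1, at 1 in the 4 wt IMQ Ly6Chi libraries and at 0 in all others. Without single libraries, the N2ΔMy count ran from 768 to 907 and the wt count from 847 to 1091. Ly6c2, at -0.19, was 0.033 in the second library series and between -0.56 and 0.093 without single libraries. Nr4a1, at -0.08, was 0.65 in the second series and between -0.30 and 0.10 without single libraries. The cause was not tested. All 95 genes described above as called kept their direction in every alternative run, and of 1991 alternative values of 105 genes 1922 kept direction and side of the threshold, 59 lost the call, 2 gained it and 8 changed sign, the last in Ly6c2 and Nr4a1 alone. A block for replicate numbers, which the labels give without stating a pairing, gave 1111 called genes, 962 of them among the 977, and no call of a named gene changed. Counts of 5 or fewer in lists of sterol, glycolysis, ribosome biogenesis, immediate-early, Fc receptor, Notch, homing, Bcl2, costimulatory, endoplasmic reticulum and transcription factor genes also moved by over 1.5 times without some single libraries. Depth limits genes with few normalized counts in Sham, where log2 differences rest on the pseudocount. With 4 libraries a group and values rounded by the authors, small changes went partly uncalled in simulated data. What the library series stand for is not given in the sources used here.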
